A study of Mus musculus with 12 samples.

Results

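The 9 genes described here are reported targets of the microRNA miR-7 in growth factor signalling, namely Egfr, Irs1, Irs2, Pak1, Mtor, Mapkap1, Eif4e, Mknk1 and Mknk2. They were taken as the rows of the deposited count table whose Ensembl identifiers map to these mouse symbols, which gave 9 of 37991 rows, and all 9 passed the filter on low counts that left 15961 genes for testing. The 12 libraries are bulk RNA-seq of pancreatic islets from male C57BL/6 mice, with 3 libraries in each of 4 groups: wild-type littermates (Wt) and Tg7 mice at 2 weeks (2w) and at 12 weeks of age (12w). Tg7 mice carry a transgene that overexpresses miR-7 specifically in β-cells, while the libraries hold RNA of whole islets with all their cell types. The study describes the younger transgenic mice as normoglycaemic and the older ones as hyperglycaemic and diabetic. Transgene and diabetes therefore go together in the Tg7 libraries at 12w, and these libraries cannot separate them. Comparisons between the ages that involve Tg7 likewise hold age and diabetes together. The part of diabetes in any difference below was not tested. Per the study's methods each library holds RNA pooled from at least 3 animals, so that p-values describe the spread between pools. Total counts per library ran from 11610697 to 17515758.

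MicroRNAs guide a silencing complex to messenger RNAs through a short seed near their 5′ end, and most known sites lie in 3′ untranslated regions (3′ UTRs). EGFR, and the insulin and IGF1 receptors through their IRS adaptors, signal to the kinase mTOR and to the Ras-MAP kinase cascade. Both routes meet at translation, where mTOR complex 1 frees the cap-binding protein eIF4E from its repressors and the MNK kinases phosphorylate it. In β-cells this signalling supports cell growth, proliferation and insulin production. These libraries do not measure the mature microRNA. The hairpin locus Mir7-1 held 9 to 30 counts in a Tg7 library and 5 to 27 in a Wt library, Mir7-2 held 0 to 8 and 2 to 13, and Mir7b 0 to 7 and 0 to 10. These counts offer no check of the transgene.

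The 2 mature mouse miR-7 sequences, from RefSeq (GRCm38.p6), are shown because they share the seed on which target sites are defined. The seed, bases 2 to 8, is in capitals.
mmu-miR-7a-5p: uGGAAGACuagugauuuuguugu
mmu-miR-7b-5p: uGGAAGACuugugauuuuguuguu
Annotated 3′ UTRs of the authors' genome build (NCBIM37) were searched on the transcribed strand for GTCTTCCA (8mer), GTCTTCC (7mer-m8), TCTTCCA (7mer-A1) and TCTTCC (6mer), each sequence counted under the longest motif it holds. Of the 9 genes, 8 held a match of 7 or 8 bases. The 9 were chosen as reported miR-7 targets, so this count may follow from that choice. Among the 14406 tested genes with an annotated 3′ UTR, 47.5% held any match and 26.8% held one of 7 or 8 bases, so that a match alone is common. The best match of each gene is shown with the bases upstream of it, the match in capitals.
Mapkap1 (8mer): aacaggagcacccttttctaatGTCTTCCA
Mknk2 (8mer): cctccactccagccactctgctGTCTTCCA
Mtor (7mer-m8): gccaacatggctaagagagtctGTCTTCCg
Eif4e (7mer-m8): gtctcttgtgtcttcttagagtGTCTTCCc
Mknk1 (7mer-m8): ggaagggcagggaaccagatcaGTCTTCCg
Irs1 (7mer-m8): caattcacaaccaggacctcacGTCTTCCt
Pak1 (7mer-m8): ccttttattttcttgttaacatGTCTTCCt
Egfr (7mer-A1): tggcagtcttagctcagcttaacTCTTCCA
The matches lie at chr2:34480299-34480306 (Mapkap1, plus strand), chr10:80129513-80129520 (Mknk2, minus), chr4:147931449-147931455 (Mtor, plus), chr3:138219509-138219515 (Eif4e, plus), chr4:115551302-115551308 (Mknk1, plus), chr1:82234082-82234088 (Irs1, minus), chr7:105003311-105003317 (Pak1, plus) and chr11:16814305-16814311 (Egfr, plus). Egfr held 9 matches in its annotated 3′ UTRs, 2 of them 7mer-A1 and 7 of them 6mer, and Mknk1 held 4. The Pak1 match lies in the 240-base 3′ UTR of a short transcript, and the 1199-base 3′ UTR of its longer transcript held none of these letters. Counting only the longest 3′ UTR of each gene left 7 of the 9 with a match. For Irs2 the annotation gives a 3′ UTR of only 30 bases, with no match, so whether Irs2 holds a site could not be judged. These are matches of letters in annotated sequence, and neither binding nor repression was measured. In the same build the genes called below span chr11:16652206-16818161 (Egfr, plus strand), chr1:82229676-82287991 (Irs1, minus), chr7:104937051-105060891 (Pak1, plus) and chr3:138189155-138220563 (Eif4e, plus).

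Fold changes are given as log2 of Tg7 over Wt with their standard error (SE). At 2w, 1 of the 9 genes fell in Tg7 islets and 1 rose. Irs1, the insulin receptor substrate, was 1.90-fold lower, and Pak1, a kinase activated by the GTPases Rac and Cdc42, was 1.66-fold higher. At 12w, 3 fell and 1 rose. Egfr (1.84-fold), Eif4e (1.47-fold) and Irs1 (1.45-fold) were lower, and Pak1 was 2.10-fold higher. A gene is called here when its Benjamini-Hochberg adjusted p over all tested genes, from edgeR's quasi-likelihood test, is under 0.05. By that rule 10.6% of all tested genes were called at 2w (4.55% lower, 6.07% higher) and 23.6% at 12w (11.2% lower, 12.5% higher). The median log2 fold change of the 9 genes was -0.16 at 2w and -0.37 at 12w, against 0.027 and -0.013 over all tested genes. The 3 lower and 1 higher call at 12w became 0 lower and 3 higher (Mapkap1, Mknk1 and Pak1) when libraries were scaled by their totals alone. That scaling moved the median of all genes up by 0.44 at 12w and by 0.17 at 2w. Insulin transcripts (Ins1 and Ins2) took 14.85% to 29.99% of the counts in Wt and 8.08% to 8.24% in Tg7 at 12w, and 10.1% to 15.4% in Wt and 1.84% to 4.09% in Tg7 at 2w. All levels below are in CPM, which are counts scaled to a common library size with TMM (trimmed mean of M-values) factors. The count at 2w was 1, with the call of Pak1 lost, without Wt replicate 1 or 3 or Tg7 replicate 1 at 2w, or without any 1 Tg7 library at 12w. Without Tg7 replicate 3 at 2w Pak1 was lost and Eif4e was called, which left the count at 2, and without Wt replicate 4 at 12w the count was 4, with Mtor and Eif4e added.

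**Figure D1:**
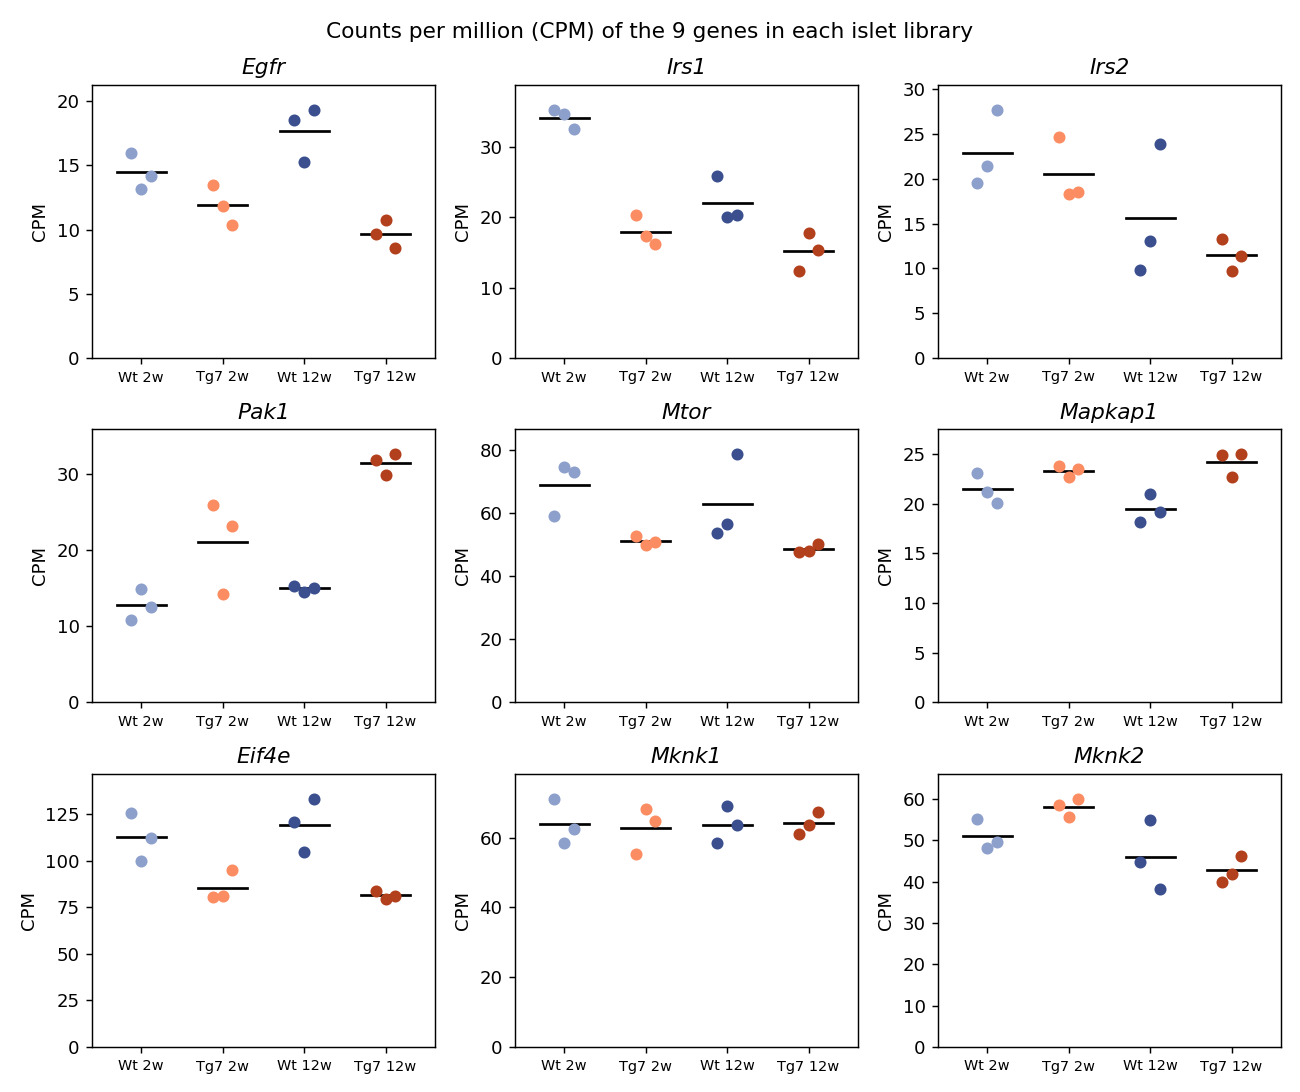
Level in CPM (vertical axis from 0) of the 9 genes in each library, by group; points are libraries (3 per group) and horizontal lines are group means. The Pak1 points of Tg7 at 12w (29.8 to 32.6) lie above all other libraries, and those of Egfr in Tg7 at 12w (8.52 to 10.7) lie below both Wt groups.

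**Figure D2:**
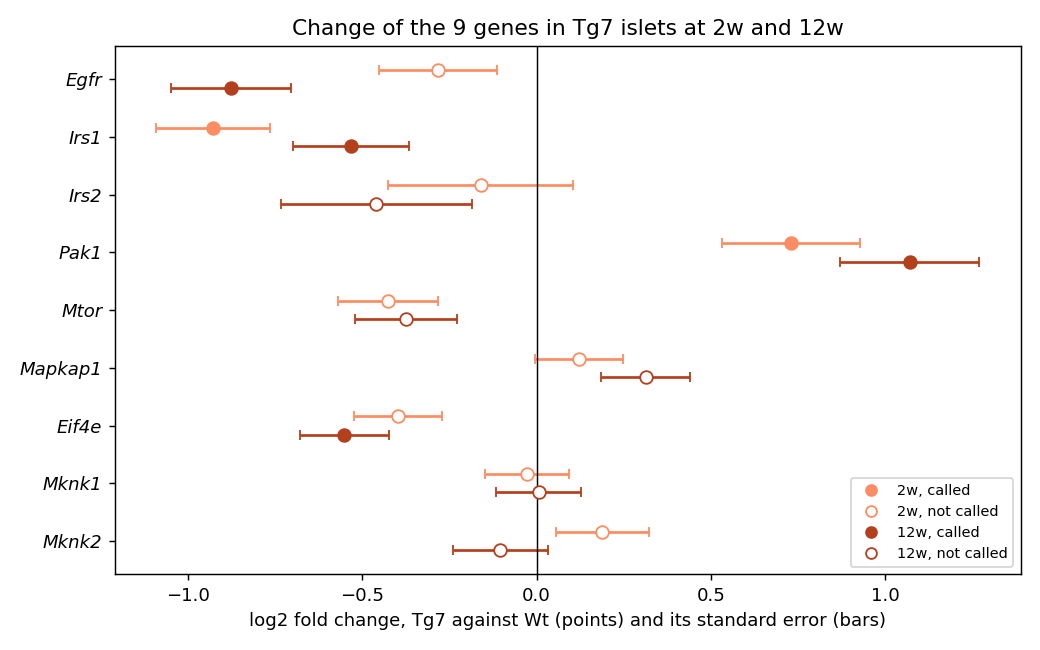
Log2 fold change of Tg7 against Wt for the 9 genes at 2w and 12w, with standard errors as bars; filled points are called. Irs1 (-0.93 and -0.53) and Pak1 (0.73 and 1.07) were called at both ages, whereas Egfr (-0.88) and Eif4e (-0.55) were called at 12w.

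Egfr encodes the receptor of EGF, amphiregulin and related ligands. In Wt islets at 12w Egfr stood at 18.5, 15.2 and 19.3 CPM (replicates 1, 2 and 4), and in Tg7 islets at 9.64, 10.7 and 8.52 CPM (replicates 1, 2 and 3). The lowest Wt library was above the highest Tg7 library. The log2 change was -0.88 (SE 0.17, adjusted p = 0.00244 in edgeR). At 2w the Wt libraries held 15.96, 13.2 and 14.2 CPM and the Tg7 libraries 13.5, 11.8 and 10.3 CPM, overlapping groups with a log2 change of -0.28 (SE 0.17, adjusted p = 0.311 in edgeR). The group means ran from Wt 12w (17.7 ± 2.17, SD, n = 3) through Wt 2w (14.5 ± 1.40) and Tg7 2w (11.9 ± 1.59) to Tg7 12w (9.63 ± 1.11), and each neighbouring pair in that order overlapped. The 12w value was -0.43, with an adjusted p of 0.0902 in edgeR, when libraries were scaled by their totals alone. With a block for replicate number it was -0.72 and was not called (adjusted p = 0.0571 in edgeR).

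By the edgeR rule above, Irs1 was the one gene of the 9 called lower at both ages. DESeq2 called both Irs1 and Eif4e lower at both ages (adjusted p = 0.0278 and 0.000374 for Eif4e). Irs1 is an adaptor that carries the insulin and IGF1 receptor signal to PI3-kinase. At 2w the Wt libraries held 35.3, 34.8 and 32.5 CPM and the Tg7 libraries 20.4, 17.3 and 16.1 CPM. No Tg7 library came near the Wt range, and the log2 change was -0.93 (SE 0.16, adjusted p = 0.00276 in edgeR). At 12w Wt held 25.8, 20.01 and 20.3 CPM against 12.4, 17.8 and 15.3 CPM in Tg7, again without overlap, with a log2 change of -0.53 (SE 0.17, adjusted p = 0.0323 in edgeR). The call at 12w was lost without Wt replicate 1 (-0.43) or Tg7 replicate 1 (-0.39) or 3 (-0.54) of that age, and the value was -0.07 with scaling by library totals alone. A block for replicate number also lost the 12w call (-0.61, adjusted p = 0.11 in edgeR). The call at 2w held without any 1 library. Irs1 also fell with age in Wt, from 34.2 ± 1.48 to 22.0 ± 3.30 CPM (SD, n = 3), a log2 change of -0.64 (SE 0.16, adjusted p = 0.0174 in edgeR), where 15.8% of all genes were called (7.91% lower, 7.90% higher) and 15.6% were lower without overlap. That call was lost without Wt replicate 1 (-0.62) or 2 (-0.63) of 2w, and with the replicate block (-0.62, adjusted p = 0.0652 in edgeR). In order of level, Wt 2w was above Wt 12w without overlap, while Wt 12w and Tg7 2w, and Tg7 2w and Tg7 12w, overlapped. An antisense gene, Gm9747, overlaps 2822 exonic bases of Irs1 and had 1 count over all libraries. Counts were not stated to use strand, so it is not known how reads of the overlap were assigned, or whether they were counted.

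Irs2, the second main IRS adaptor of β-cells, was not called. Its 12w libraries held 9.83, 13.0 and 23.9 CPM in Wt (replicates 1, 2 and 4) and 13.3, 9.68 and 11.4 CPM in Tg7. The single high library, Wt replicate 4, set the difference, and the log2 change was -0.46 (SE 0.27, adjusted p = 0.256 in edgeR) with it and -0.003 without it. At 2w the values were 19.5, 21.4 and 27.7 CPM in Wt and 24.7, 18.3 and 18.6 CPM in Tg7 (-0.16, SE 0.27, adjusted p = 0.749 in edgeR). Between the ages the Tg7 groups did not overlap, as for 19.2% of all genes in the lower direction, and 12w against 2w was not called (-0.84, SE 0.27, adjusted p = 0.0571 in edgeR), although it was without Wt replicate 1 (-0.85) or 4 (-0.84) of 12w and in DESeq2. Irs2 shares 162 exonic bases with the antisense transcript 9530052E02Rik, which had at most 42 counts in a library.

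Pak1 phosphorylates targets that remodel the actin cytoskeleton and, in β-cells, takes part in insulin granule release. By the edgeR rule above it alone of the 9 genes was called higher. At 12w the Wt libraries held 15.3, 14.5 and 15.1 CPM and the Tg7 libraries 31.8, 29.8 and 32.6 CPM. Every Tg7 library was above every Wt library by a wide margin compared with the spread, and the log2 change was 1.07 (SE 0.20, adjusted p = 0.00164 in edgeR). This call held under each alternative that was run, with 1.05 to 1.11 when single libraries were left out. At 2w Wt held 10.9, 14.9 and 12.4 CPM and Tg7 held 25.9, 14.2 and 23.1 CPM. Tg7 replicate 2 lay inside the Wt range, so the groups overlapped, and the log2 change was 0.73 (SE 0.20, adjusted p = 0.0322 in edgeR). Values without single libraries ran from 0.56 to 0.94 at this age, and the call was lost without Wt replicate 1 (0.62) or 3 (0.71), Tg7 replicate 1 (0.56) or 3 (0.65), or any 1 Tg7 library of 12w (0.73). A block for replicate number also lost the 2w call (0.70, adjusted p = 0.0829 in edgeR). In order of mean level, Tg7 12w (31.4 ± 1.41, SD, n = 3) stood above Tg7 2w (21.1 ± 6.13) without overlap, and Tg7 2w overlapped Wt 12w (14.95 ± 0.38), which overlapped Wt 2w (12.7 ± 2.03).

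Mtor encodes the kinase shared by the TOR complexes 1 and 2, and Mapkap1 encodes SIN1, a subunit of complex 2. Mtor was lower in Tg7 at both ages without being called. At 2w Wt held 59.3, 74.6 and 73.2 CPM and Tg7 held 53.0, 50.1 and 51.0 CPM (-0.43, SE 0.14, adjusted p = 0.0727 in edgeR). At 12w Wt held 53.8, 56.7 and 78.8 CPM and Tg7 held 47.9, 48.1 and 50.3 CPM (-0.37, SE 0.15, adjusted p = 0.078 in edgeR). Without Wt replicate 4, the highest library at 12w, the value of that age was -0.18. The groups did not overlap at either age, a separation in the lower direction that 18.1% of all genes showed at 2w and 16.3% at 12w. Mtor was called at 2w when each age was fitted alone (-0.42) or without Wt replicate 4 of 12w (-0.43), and at 12w without Wt replicate 1 (-0.50). With library totals alone the 12w value was 0.05, the opposite sign.

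Mapkap1, which holds 1 of the 2 8mer matches, went the other way. At 12w it stood at 18.1, 21.0 and 19.2 CPM in Wt and 24.9, 22.7 and 25.0 CPM in Tg7, without overlap, as for 20.7% of all genes in the higher direction, and without a call (0.31, SE 0.13, adjusted p = 0.0926 in edgeR). It was called with library totals alone (0.75). At 2w the range was 20.1 to 23.1 CPM in Wt and 22.7 to 23.8 CPM in Tg7 (0.12, SE 0.13, adjusted p = 0.581 in edgeR).

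Eif4e encodes the protein that binds the 5′ cap of messenger RNAs at the start of translation. At 12w the Wt libraries held 120, 104 and 133 CPM and the Tg7 libraries 83.6, 79.6 and 81.2 CPM. The Tg7 libraries lay close together and below every Wt library, and the log2 change was -0.55 (SE 0.13, adjusted p = 0.00688 in edgeR). At 2w Wt held 126, 99.6 and 112 CPM and Tg7 held 80.2, 80.7 and 94.98 CPM, again with no overlap, and the value of -0.40 was just short of a call (SE 0.13, adjusted p = 0.0598 in edgeR and 0.0278 in DESeq2). It was called without Tg7 replicate 3 of 2w (-0.49) or any 1 Wt library of 12w (-0.40). Both Wt groups overlapped in level, both Tg7 groups overlapped, and no library of Tg7 reached any library of Wt. With library totals alone the 12w value was -0.11 and was not called. With a block for replicate number it was -0.46 and was not called (adjusted p = 0.0655 in edgeR).

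Mknk1 and Mknk2 encode MNK1 and MNK2, the kinases that phosphorylate eIF4E. Mknk1 had group means of 64.0 ± 6.54, 62.8 ± 6.63, 63.8 ± 5.29 and 64.1 ± 3.18 CPM (SD, n = 3) in Wt 2w, Tg7 2w, Wt 12w and Tg7 12w. Its log2 fold changes in Tg7 were -0.03 (SE 0.12) at 2w and 0.007 (SE 0.12) at 12w, and neither was called. Scaling by library totals alone gave 0.14 at 2w, the opposite sign, and 0.45 at 12w, which was called (adjusted p = 0.0329 in edgeR). Mknk2, with the other 8mer match, held 55.1, 48.2 and 49.6 CPM in Wt and 58.5, 55.7 and 60.1 CPM in Tg7 at 2w. These groups did not overlap, as for 17.8% of all genes in the higher direction, and the difference was not called (0.19, SE 0.13, adjusted p = 0.398 in edgeR). At 12w Wt held 44.7, 54.9 and 38.2 CPM and Tg7 held 40.0, 41.9 and 46.2 CPM (-0.10, SE 0.14, adjusted p = 0.638 in edgeR; 0.35 with library totals alone). Mknk2 fell with age in Tg7 (-0.44, SE 0.13, adjusted p = 0.0433 in edgeR), where 13.0% of all genes were called (6.01% lower, 7.02% higher). This call held only without Wt replicate 1, 2 or 4 of 12w and was lost without any 1 other library, with values from -0.40 to -0.50.

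None of the 9 genes was called for a difference of the Tg7 effect between the ages in edgeR, nor in DESeq2, where edgeR called 1.18% of all genes. Egfr was the only one with an unadjusted p under 0.05 in edgeR (adjusted p = 0.277), with a difference of -0.59 (SE 0.24) on the log2 scale. For Pak1 the difference was 0.34 (SE 0.28) and for Irs1 0.40 (SE 0.23), so the changes at 2w and 12w were not shown to differ in size. The comparisons at 2w and 12w share no libraries, but their p-values share the estimate of spread from the fit over all 12 libraries.

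Levels can be compared between genes only per length of transcript. In Wt islets at 12w the mean RPKM, which scales reads for annotated exon length and library size, was 41.4 ± 5.01 (SD, n = 3) for Eif4e, 14.2 ± 1.18 for Mknk1 and 13.4 ± 2.44 for Mknk2. Mtor followed at 6.24 ± 1.35, Mapkap1 at 4.79 ± 0.36, Pak1 at 3.97 ± 0.10, Irs2 at 3.87 ± 1.83, Irs1 at 2.41 ± 0.36 and Egfr at 1.56 ± 0.19. Mknk1 and Mknk2, Pak1 and Irs2, and Irs2 and Irs1 overlapped between libraries, and the other neighbours in this order did not. In Tg7 at 12w Pak1 reached 8.35 ± 0.37 RPKM, while Mtor stood at 4.82 ± 0.14 and Egfr at 0.85 ± 0.10.

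The change of a gene did not follow the length of its best seed match among these 9. The 8mer genes Mapkap1 and Mknk2 were not called at either age, the 7mer-m8 genes included Irs1 and Eif4e, which fell, and Pak1, which rose, and Egfr had a 7mer-A1. Over all tested genes with an annotated 3′ UTR, the median log2 fold change at 12w was -0.08 for 626 genes with an 8mer, -0.10 for 1448 with a 7mer-m8, -0.05 for 1793 with a 7mer-A1, -0.03 for 2976 with a 6mer and 0.003 for 7563 with none. At 2w these medians were -0.04, -0.04, -0.004, 0.006 and 0.06. The classes also differ in 3′ UTR length, with a median of 2292 bases for 8mer genes and 643 bases for genes with none, and the part of length in these medians was not tested.

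**Figure D3:**
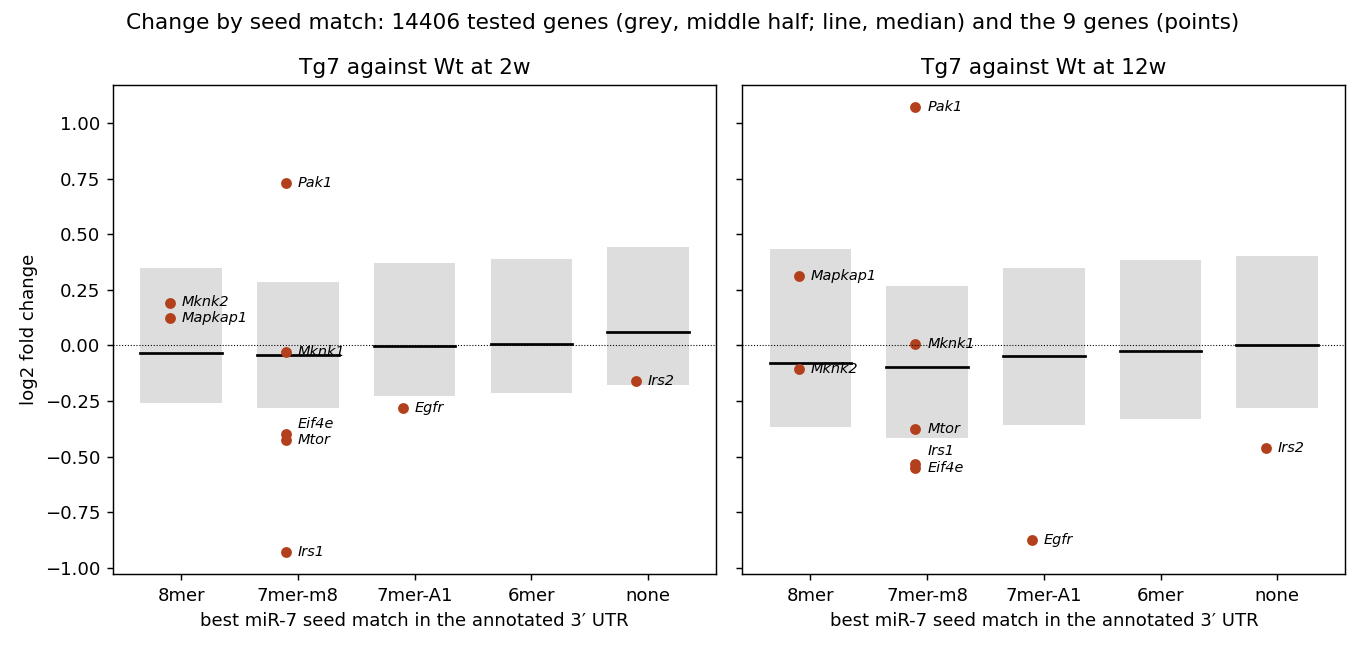
Log2 fold change of Tg7 against Wt at 2w and 12w (vertical axis) by the best miR-7 seed match in the annotated 3′ UTR (horizontal axis); grey bars span the lower to the upper quartile of all tested genes in a class, black lines are medians and points are the 9 genes. Pak1 (1.07 at 12w) lies above and Irs1 (-0.53) and Eif4e (-0.55) below the grey bar of their class. Irs2 is placed under none on an annotated 3′ UTR of only 30 bases.

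By the rule that named the tested genes with the highest Pearson correlation of log2 CPM over the 12 libraries, the nearest to Pak1 were Prdx4 (r = 0.945), Eci2 (r = 0.942) and H2-DMa (r = 0.939). For Egfr they were Tsc22d2 (r = 0.963), Rab33b (r = 0.954) and Zfp91 (r = 0.953). For Irs1 they were Nnat (r = 0.949), Ffar3 (r = 0.941) and Gm14085 (r = 0.935), and for Eif4e Igsf11 (r = 0.962), Mak16 (r = 0.961) and Kif5b (r = 0.959). The libraries form 4 groups, so these correlations mostly carry the differences between groups and are given as a description.

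Of the close relatives of the 9 genes, 13 of 16 passed the filter (Eif4e3, Irs3 and Irs4 did not). At 2w 2 rose and 2 fell (15.4% each, against 6.07% and 4.55% of all genes). At 12w 1 rose and 3 fell (7.69% and 23.1%, against 12.5% and 11.2% of all genes). Of the 12w calls, 1 higher and 1 lower were left without any 1 Tg7 library of 12w. Igf1r, the IGF1 receptor upstream of IRS1, fell at both ages, from 94.6 ± 3.88 to 35.4 ± 10.7 CPM (SD, n = 3) at 2w (-1.42, SE 0.31, adjusted p = 0.00959 in edgeR) and from 72.9 ± 42.9 to 20.6 ± 1.12 CPM at 12w (-1.83, SE 0.31). The insulin receptor gene Insr was not called (0.20, SE 0.14, at 2w and -0.08, SE 0.14, at 12w, the latter 0.36 with library totals alone and 0.04 without Wt replicate 4 of 12w). In the EGF receptor family, Erbb4 rose at 2w on 4 counts in Wt and 65 in Tg7, a ratio of 14.7 (exact 95% counting interval 5.49 to 55.7), and the call was lost without any 1 Wt library of that age or Tg7 replicate 3 (2.59). It was not called at 12w (1.20, SE 0.82). Erbb2 (0.87, SE 0.28, at 2w and 0.59, SE 0.30, at 12w) and Erbb3 (0.58, SE 0.20, and 0.09, SE 0.21) were not called by edgeR. DESeq2 called both at 2w (adjusted p = 0.023 and 0.0452). Erbb2 was also called by edgeR at 2w without Tg7 replicate 2 of 2w (1.08) or Wt replicate 4 of 12w (0.86), under the stricter filter (0.89), and with library totals alone at 2w (1.04) and 12w (1.03). Erbb3 at 12w was -0.04 without Tg7 replicate 3.

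The PAK kinases moved in both directions. Pak7 rose from 1.09 ± 0.08 to 6.78 ± 1.502 CPM (SD, n = 3) at 2w (2.62, SE 0.33, adjusted p = 0.000274 in edgeR) and from 1.495 ± 0.71 to 11.7 ± 2.39 CPM at 12w (3.02, SE 0.34, adjusted p = 3.01e-05 in edgeR). Pak3 fell at both ages, from 212 ± 21.6 to 114 ± 19.9 CPM at 2w (-0.90, SE 0.20) and from 221 ± 68.5 to 147 ± 17.1 CPM at 12w (-0.59, SE 0.20). Its 12w call held only without Tg7 replicate 3 of 2w or Wt replicate 2 or 4 of 12w, and was lost without any 1 other library, with values from -0.34 to -0.66. Scaled by library totals alone, Pak3 (-0.12) and Pak6 (-0.21) were not called at 12w. Pak6 fell at 12w (-0.64, SE 0.20), a call lost without Wt replicate 2 (-0.54) or any 1 Tg7 library of that age (-0.55 to -0.70), and it was not called at 2w (-0.49, SE 0.20). Pak2 (-0.32, SE 0.19, and -0.23, SE 0.19, at 12w, 0.05 without Wt replicate 4 of 12w) and Pak4 (-0.27, SE 0.15, and 0.20, SE 0.15) were not called. Pak4 at 12w was 0.0008 without Wt replicate 1 and 0.35 without Wt replicate 2, and it was called with library totals alone (0.62). For the others, Eif4e2 (-0.05, SE 0.13, and -0.31, SE 0.14), Rptor (-0.30, SE 0.13, and -0.32, SE 0.13) and Rictor (0.16, SE 0.16, and 0.09, SE 0.16) were not called at 2w or 12w. Rptor was called at 12w without Wt replicate 2 (-0.43) and at 2w without Wt replicate 4 of 12w (-0.31), and Rictor at 12w was -0.10 without Wt replicate 1. With library totals alone the 12w values of Eif4e2 (0.12), Rptor (0.11) and Pak2 (0.19) were above 0.

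**Figure D4:**
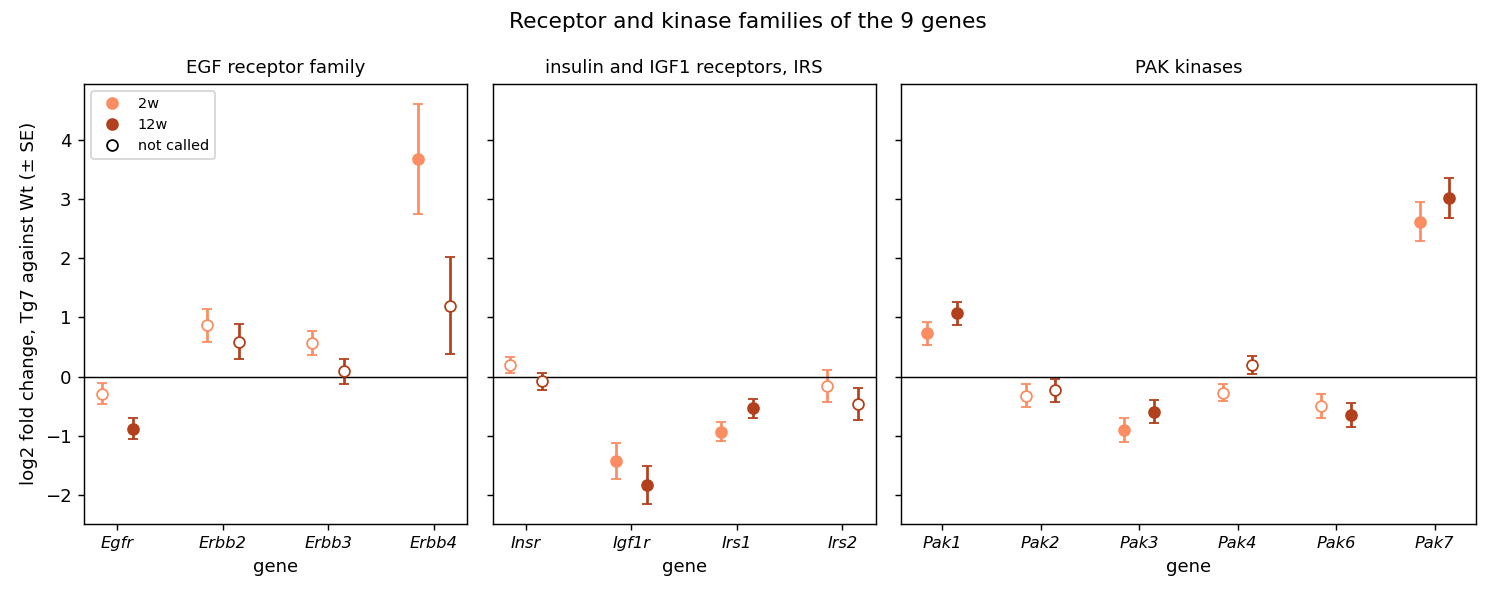
Log2 fold change of Tg7 against Wt (vertical axis, bars are standard errors) for the EGF receptor family, the insulin and IGF1 receptors with their IRS adaptors, and the PAK kinases, at 2w and 12w; open points are not called. Pak7 (3.02 at 12w) and Igf1r (-1.83 at 12w) lie furthest from 0 on either side among the called 12w values.

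Across 7 lists of growth signalling genes, 155 of 159 genes were tested and include the 9. At 2w 12 rose and 6 fell (7.74% and 3.87% of those tested, against 6.07% and 4.55% of all genes). At 12w 19 rose and 31 fell (12.3% and 20%, against 12.5% and 11.2% of all genes). These all-gene shares also stand beside each list below. Without the 9 genes, 11 rose and 5 fell of 146 at 2w and 18 rose and 28 fell at 12w. The median log2 fold change of the 155 was -0.067 at 2w and -0.060 at 12w. Under the scaling by library totals alone the split was 21 higher and 5 lower at 2w and 56 higher and 4 lower at 12w. The 18 calls at 2w became 7, 11 and 8 without Wt replicate 1, 2 or 3 of that age and 43 without Wt replicate 4 of 12w. Over all genes the 1695 calls at 2w became 912, 1036 and 754 without Wt replicate 1, 2 or 3, and 3071 without Wt replicate 4 of 12w. The 50 list calls at 12w became 29 without any 1 Tg7 library of that age. Over all genes the 3772 calls at 12w became 2522, 2417 and 2418 without Tg7 replicate 1, 2 or 3.

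**Figure D5:**
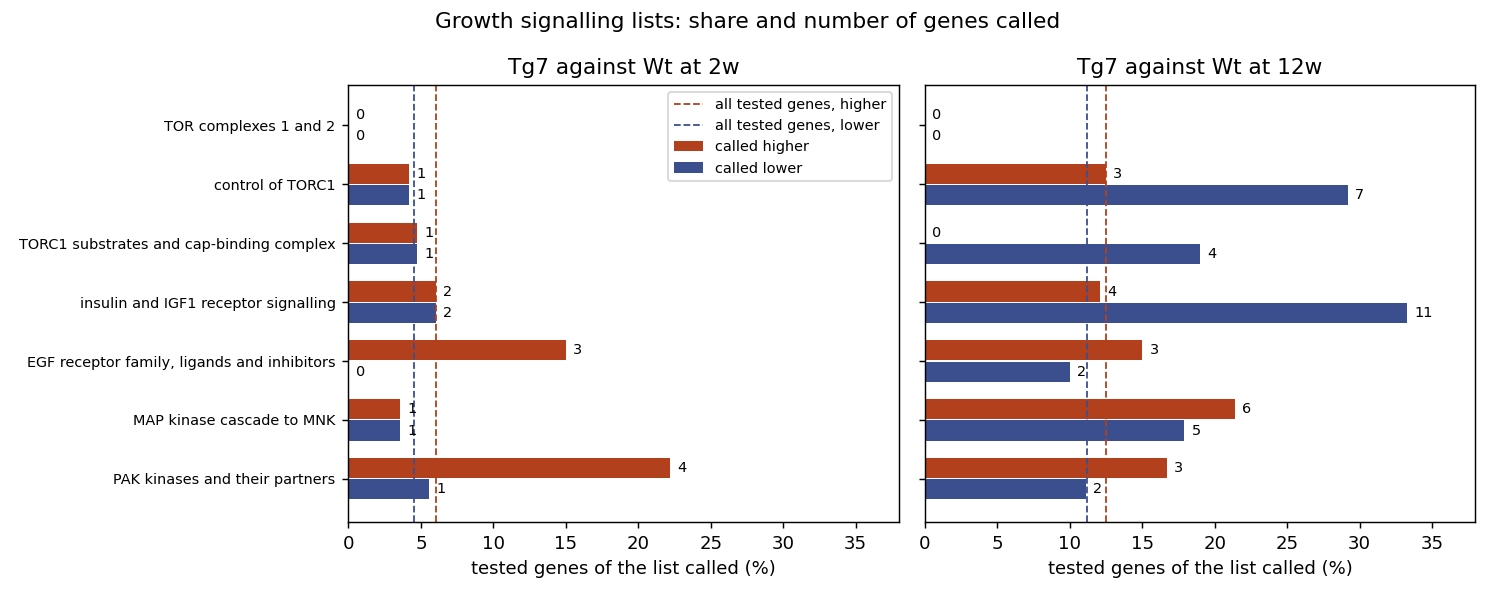
Share of the tested genes of each list that was called higher or lower in Tg7 (horizontal axis, percent, with the number of genes at the bar end) at 2w and 12w; dashed lines are the shares of all tested genes. At 12w 11 genes of insulin and IGF1 receptor signalling and 7 controlling TORC1 were called lower (2 to 4 and 3 to 4 without any 1 Tg7 library of 12w), and the TOR complexes had 0 calls at either age with all 12 libraries.

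None of the 11 TOR complex genes was called by edgeR at either age. At 2w 5 had an unadjusted p under 0.05 and DESeq2 called 2, and at 12w the counts were 5 and 1. The 0 depended on single libraries, since edgeR called 2 higher and 3 lower at 2w without Wt replicate 4 of 12w, and 3 lower at 12w without Wt replicate 2. Fits of each age alone called 1 higher and 2 lower at 2w, and library totals alone gave 3 higher at 12w. Of 24 genes that control TORC1, 1 rose and 1 fell at 2w (4.17% each). At 12w 3 rose and 7 fell (12.5% and 29.2%). The 7 became 4, 3 and 3 without Tg7 replicate 1, 2 or 3 of 12w and 4 without Wt replicate 4, and library totals alone gave 10 higher and 2 lower. Rragd, a Rag GTPase that relays amino acid supply to TORC1, fell at both ages (-0.83, SE 0.18, and -1.22, SE 0.18), with the 2w call lost without Wt replicate 1 (-0.67). Flcn, which encodes folliculin and acts on the Rag GTPases, fell at 12w (-0.93, SE 0.21), and was not called with library totals alone (-0.49). Ddit4l, a relative of the TORC1 inhibitor REDD1, rose at both ages (1.47, SE 0.34, and 1.92, SE 0.35), with the 2w call lost without Wt replicate 2 (1.32) or 3 (1.26). Rhebl1, a Rheb-like GTPase, rose at 12w (2.30, SE 0.43), from 0.76 ± 0.41 to 3.98 ± 0.81 CPM (SD, n = 3).

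Among 21 tested TORC1 substrates and cap-binding genes, 1 rose and 1 fell at 2w (4.76% each). At 12w 0 rose and 4 fell (0% and 19%). The 4 became 2 without any 1 Tg7 library of 12w, and library totals alone gave 6 higher and 0 lower. Only 1 had an unadjusted p under 0.05 in the higher direction at 12w and DESeq2 called 0 of them higher. Larp1, which binds messenger RNAs of the translation machinery, fell at both ages (-0.43, SE 0.11, and -0.48, SE 0.11), and its 2w call was lost without replicate 1 or 3 of Wt (-0.35 and -0.47) or of Tg7 (-0.37 and -0.45). Neither call held with library totals alone (-0.26 and -0.03). Eif4a1, the cap-binding complex helicase, fell at 12w (-0.34, SE 0.10), a call lost without any 1 Tg7 library of 12w or replicate 3 of Wt or Tg7 at 2w (-0.30 to -0.36). Its value was 0.10 with library totals alone. Eif4ebp2, an eIF4E repressor, fell at 12w (-0.88, SE 0.28), lost without Wt replicate 4 (-0.42) or any 1 Tg7 library (-0.81 to -0.98) and with library totals alone (-0.46). Ulk1, an autophagy kinase that TORC1 inhibits, rose at 2w (0.38, SE 0.11), and this call held only when the library left out was a Wt library of 12w.

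Of 33 tested genes of insulin and IGF1 receptor signalling, 2 rose and 2 fell at 2w (6.06% each). At 12w 4 rose and 11 fell (12.1% and 33.3%, against 12.5% and 11.2% of all genes). The 11 lower calls became 2, 4 and 3 without Tg7 replicate 1, 2 or 3 of 12w. They became 7 without Wt replicate 2 or 3 or Tg7 replicate 2 of 2w, and 3 when each age was fitted alone. Calls over all genes at 12w fell too, from 3772 to 2522, 2417 and 2418 without Tg7 replicate 1, 2 or 3 of 12w. With each age alone they were 2649. The number of lower calls was not stable, and these counts alone do not show whether the excess over all genes held. Beside Igf1r and Irs1, Grb10, an adaptor that inhibits these receptors, fell at 12w (-0.80, SE 0.14), without a call under library totals alone (-0.36). Grb14, its relative with a like role, rose at both ages, from 27.3 ± 0.81 to 48.2 ± 0.88 CPM (SD, n = 3) at 2w (0.82, SE 0.11) and from 17.9 ± 1.30 to 56.3 ± 0.60 CPM at 12w (1.65, SE 0.11, adjusted p = 3.32e-07 in edgeR). Pdpk1, the kinase that activates AKT, fell at 12w (-0.91, SE 0.31). That call held only without Tg7 replicate 1 of 2w or Wt replicate 1 or 2 of 12w, and the value was -0.30 without Wt replicate 4 and -0.50, not called, with library totals alone. Scaled by library totals alone, 7 genes of the list were called higher and 1 lower at 12w.

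Of 20 tested genes of the EGF receptor family, its ligands and inhibitors, 3 rose and 0 fell at 2w (15% and 0%). At 12w 3 rose and 2 fell (15% and 10%). At 2w 1 of the 20 had an unadjusted p under 0.05 in the lower direction in edgeR and DESeq2 called 0 lower. The 3 calls at 2w became 0, 1 and 0 without Wt replicate 1, 2 or 3, 1 without Tg7 replicate 3 and 6 without Wt replicate 4 of 12w, and library totals alone gave 6 higher and 0 lower at either age. Areg, the EGFR ligand amphiregulin, fell at 12w on 47 counts in Wt and 10 in Tg7, a ratio of 0.142 (exact 95% counting interval 0.0639 to 0.284), and its call held only without Tg7 replicate 1 or 3 of 2w or Wt replicate 4 of 12w. It was lost with library totals alone (-2.35). Nrg1, a ligand within this receptor family, rose at 2w (1.35, SE 0.40) and 12w (2.18, SE 0.44). With single libraries left out, the 2w call held only when that library was a Wt library of 12w. Nrg3, also a neuregulin, rose at 12w on 1 count in Wt and 116 in Tg7, a ratio of 77.3 (exact 95% counting interval 13.6 to 3080). Intervals of this kind cover counting error only.

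Of 28 genes of the MAP kinase cascade to MNK, 1 rose and 1 fell at 2w (3.57% each). At 12w 6 rose and 5 fell (21.4% and 17.9%), with 12 higher and 1 lower under library totals alone. Dusp4, a phosphatase of MAP kinases, fell from 38.6 ± 6.19 to 13.1 ± 2.34 CPM (SD, n = 3) at 2w (-1.56, SE 0.24, adjusted p = 0.00109 in edgeR) and from 37.0 ± 13.0 to 8.56 ± 1.51 CPM at 12w (-2.12, SE 0.25). At 12w Mapk11 (1.74, SE 0.27) and Mapk12 (1.19, SE 0.29), which encode p38 kinases, rose, as did Spry1, an inhibitor of receptor tyrosine kinase signalling (1.57, SE 0.19). Of 18 genes of the PAK kinases and their partners, 4 rose and 1 fell at 2w (22.2% and 5.56%). At 12w 3 rose and 2 fell (16.7% and 11.1%). The 4 became 1, 2 and 2 without Wt replicate 1, 2 or 3 of 2w and 2 without Tg7 replicate 1 of 2w or any 1 Tg7 library of 12w. Without any 1 Tg7 library of 12w the calls of that age were 3 higher and 0 lower, and library totals alone gave 12 higher and 0 lower. Limk2, a kinase that phosphorylates cofilin, rose at both ages (0.56, SE 0.14, and 0.75, SE 0.14), with the 2w call lost without Wt replicate 1 or 2 (0.51 and 0.54) or Tg7 replicate 2 (0.51). Rac2, a Rac GTPase of blood cells, was called higher at 2w (3.25, SE 0.98) with 5.62 ± 7.61 CPM in Tg7, and stood at 1.05 without Tg7 replicate 1. That call was lost without any 1 of 8 libraries.

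Marker genes of islet cell types also differed in the same comparisons. In bulk libraries fewer cells of a type and less RNA per cell cannot be told apart. Of 8 β-cell markers, 8 fell at 2w and 7 at 12w, and none was at 0 in all libraries. Their summed level was 96700 to 162000 CPM in Wt and 15900 to 37600 in Tg7 at 2w, and 175000 to 443000 and 75300 to 78500 at 12w. Ins1 and Ins2, whose shares of the counts are given above, are among the 8 and made up most of these sums. Of 7 stellate cell and fibroblast markers, 6 rose at 2w (summed level 220 to 319 CPM in Wt, 408 to 550 in Tg7) and 7 rose at 12w (35.3 to 42.2 against 262 to 298). Of 7 endothelial markers 0 were called by edgeR at 2w, where 1 had an unadjusted p under 0.05 and DESeq2 called 1, and 7 rose at 12w (353 to 483 against 759 to 819 CPM). Among 5 α-cell and 3 δ-cell markers edgeR called 0 at either age, with 0 at an unadjusted p under 0.05 and 0 in DESeq2. Of the tested markers of other cells that the islets could hold, 2 of 5 ductal and 2 of 5 Schwann cell markers rose and 1 of 7 macrophage markers fell at 12w, and 1 of 6 acinar, 1 of 2 pancreatic polypeptide cell and 1 of 7 macrophage markers rose at 2w. In Wt, the stellate markers were also 220 to 319 CPM at 2w against 35.3 to 42.2 at 12w. The part of these marker differences in the changes of Egfr, Irs1, Eif4e and Pak1 was not tested.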

How the data were processed

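Islet RNA libraries (NEB Ultra II kit, paired-end HiSeq2500) were, per the labels and the study's methods, trimmed with Trimmomatic, aligned with TopHat2 2.0.11 to build NCBIM37 (mm9) and counted by featureCounts. Neither source states the version or the strand setting of the counting. The authors deposited raw counts per Ensembl gene, and all 12 columns were used. Symbols came from the NCBIM37 annotation (37205 of 37991 identifiers matched).

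Genes were filtered with filterByExpr (minimum count 10, minimum total 15), scaled with TMM and fitted in edgeR 4.0.16 (R 4.3.3) as group means over all 12 libraries with quasi-likelihood tests and Benjamini-Hochberg adjustment over 15961 genes. Standard errors are the log2 fold change over the square root of F. The fit and the seed search were tested on simulated data. Alternatives covered DESeq2 1.42.0 (the study's own tool), scaling, filters, a replicate block, each age alone and each library left out. Named list genes were the relatives and up to 4 called genes per list with the largest change. The members and lists were chosen with earlier results of these data known. Replicates differed by more than sampling noise. The mean chi-square per gene between 2 libraries of a group was largest for Wt replicate 4 of 12w against replicates 1 (214) and 2 (125). Insulin transcripts took 14.85% of the counts of replicate 4, against 29.99% and 27.01% in replicates 1 and 2. Figures were drawn with matplotlib 3.10.9.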

Additional observations from a re-analysis of the deposited data

How the results depend on the processing

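The counts of called genes among the 9 and among all list genes together moved by less than 1.5 times under DESeq2 size factors in edgeR and under other filters, apart from 2 of the 9 genes called for age in Tg7 under the stricter filter in place of 1. For single lists the stricter filter gave 4 calls controlling TORC1 at 2w against 2 and 2 in the EGF receptor family at 12w against 5, and no filter gave 1 TORC1 substrate at 2w against 2. DESeq2 called 31 list genes at 2w and 3 of the 9 for age in Tg7. Fits of each age alone called 30 list genes at 2w and 31 at 12w, and there Pak1 at 2w and Irs1 at 12w lost their calls. Without an expression filter Irs1 at 12w was at an adjusted p of 0.0507 in edgeR, and insulin and IGF1 receptor genes went from 4 higher and 11 lower to 2 and 8. Under library totals alone, 3 of the 9 were called for age in Wt. Leaving out single libraries gave 1 to 4 of the 9 at 2w, 3 to 4 at 12w, 0 to 2 for age in Wt and 0 to 3 for age in Tg7. For the list genes it gave 7 to 43 at 2w and 29 to 57 at 12w. Over all genes, DESeq2 called 2617 at 2w against 1695 in edgeR and 607 against 188 for the difference between the ages. For that difference library totals gave 347, no filter 420 and the replicate block 108. Library totals gave 4120 for age in Wt against 2524, and 5558 and 1987 at 12w and 2w, of which 93.5% and 84% were higher in Tg7 against 52.7% and 57.2%.

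Same-number deviations correlated at -0.0214, -0.167 and -0.0343 in the 2w groups, and at -0.0894 and -0.0112 in the 12w groups. These few values gave no sign of pairing by replicate number but cannot exclude a shared batch or preparation. Under the replicate block, 1 of the 9 was called at 2w (Irs1), 1 at 12w (Pak1) and 0 for age in Wt. Pak1 at 2w and Egfr, Eif4e and Irs1 at 12w lost their calls. The block called 28 list genes at 12w, and 2211 of all genes at 12w against 3772.

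The following log2 values changed sign. Under library totals alone they were 0.14 for Mknk1 and 0.0024 for Irs2 at 2w. At 12w they were 0.05 for Mtor, 0.35 for Mknk2, 0.12 for Eif4e2 (also 0.12 at 2w), 0.11 for Rptor, 0.36 for Insr, 0.19 for Pak2 and 0.10 for Eif4a1. The difference between ages was 0.11 for Eif4e. For age in Wt Eif4e was at -0.30, Egfr at -0.099 and Pak1 at -0.17, and for age in Tg7 Mapkap1 was at -0.068 and Mknk1 at -0.085. Under the replicate block Mknk1 was at -0.027, Insr at 0.073 and Pak2 at 0.073 at 12w, Irs2 at 0.15 for the difference, Mknk1 at 0.019 for age in Wt and Mtor at 0.045 for age in Tg7. For each age alone Mknk1 at 12w was at -0.021, and for age in Wt it was at 0.0040 in DESeq2 and 0.0032 with DESeq2 size factors. Over the libraries left out Mknk1 ran from -0.095 to 0.058 at 2w, -0.074 to 0.068 at 12w, -0.045 to 0.10 for the difference, -0.071 to 0.075 for age in Wt and -0.059 to 0.095 for age in Tg7. Mknk2 ran from -0.22 to 0.047 at 12w, and for the difference Mtor ran from -0.071 to 0.25 and Irs2 from -0.55 to 0.16. Eif4e ran from -0.0081 to 0.17 for age in Wt and -0.12 to 0.026 for age in Tg7, and Eif4e2 from -0.097 to 0.025 at 2w. At 12w Rictor ran from -0.096 to 0.29, Insr from -0.22 to 0.040, Erbb3 from -0.045 to 0.19 and Pak2 from -0.42 to 0.049. Under library totals alone the median of all genes moved by 0.44 at 12w and 0.17 at 2w. It moved by 0.27 for the difference between ages, -0.39 for age in Wt and -0.12 for age in Tg7. The sign changes under that scaling therefore go with a shift of all genes. The cause of the other shifts was not tested.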

Other observations

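Beyond the 9 genes, 3 of the 146 other list genes were called by edgeR for a difference of the Tg7 effect between the ages, all 3 higher at 12w. These were Grb14 (0.83, adjusted p = 0.0177), Spry1 (1.39, adjusted p = 0.0162) and Nrg3, whose 2w comparison rests on 13 counts in Wt and 2 in Tg7 and whose 12w comparison rests on 1 and 116. Spry1 stood at 12.5 ± 1.52 and 14.1 ± 0.45 CPM (SD, n = 3) in Wt and Tg7 at 2w and at 2.36 ± 0.14 and 6.98 ± 0.37 CPM at 12w, so that the Wt level was the one that differed most between the ages. Deptor, an inhibitor of mTOR singled out after its values were seen, stood at 110 ± 19.3 CPM in Wt and 158 ± 14.2 in Tg7 at 2w and at 311 ± 101 and 211 ± 5.53 CPM at 12w. In edgeR neither comparison was called (0.53, SE 0.20, and -0.56, SE 0.20), nor was their difference (-1.09, adjusted p = 0.0804). DESeq2 called the 12w comparison (adjusted p = 0.0294) and the difference (adjusted p = 0.011).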
